A study of Mus musculus with 12 samples.

Results

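The genes described here are genes of the urea cycle and of the supply of nitrogen to it in the periportal hepatocytes of the mouse liver: Nags, Cps1, Otc, Ass1, Asl, Slc25a13, Slc25a15, Glud1 and Gls2. They were chosen by gene symbol, and all 9 were found among the 47069 genes of the deposited expression table. RNA-seq of polyA RNA was carried out on isolated hepatocytes and on whole liver of wild type (WT) and of Cdk1 Liv-/- mice at P14, 14 days after birth, with 3 libraries in each of the 4 groups and 12 libraries in all. Cdk1 Liv-/- mice (KO) came from a cross of Cdk1 flox/flox with Albumin-Cre mice, so that Cdk1, the kinase that drives cells into mitosis, is deleted in hepatocytes whereas the interstitial cells of the liver keep it. Hepatocytes were prepared by a previously published isolation protocol, and whole liver was snap frozen. Neither the alleles carried by the WT mice nor whether hepatocytes and liver came from the same animals is stated in the labels, so the p-values describe the spread between these libraries. The comparisons ask how the liver, and the hepatocytes taken from it, differ when hepatocytes cannot divide.

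Ammonia released from amino acids is toxic, and the liver turns it into urea in a cycle that begins in the mitochondria of hepatocytes and is completed in their cytosol. The enzymes of the cycle are most abundant in hepatocytes near the portal vein, whereas hepatocytes next to the central vein bind the ammonia that is left over into glutamine. The cycle draws its nitrogen from ammonia, released from glutamate and glutamine in the mitochondria, and from aspartate, which a carrier brings to the cytosol.

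Expression is given in FPKM, read fragments scaled to the length of the transcript and the depth of the library, so that levels of different genes can be set side by side per length. The deleted gene itself, Cdk1 (ENSMUSG00000019942, chr10:69335146-69352938, minus strand), was at 27.9, 20.4 and 28.2 FPKM in the 3 WT hepatocyte libraries, 9.68, 11.8 and 6.87 FPKM in KO hepatocytes, 25.3, 22.7 and 21.5 FPKM in WT liver and 11.7, 12.1 and 14.2 FPKM in KO liver. All 6 KO libraries lay below all 6 WT libraries. Cdk1 was lower in KO hepatocytes (log2 fold change -1.40 ± 0.22 SE, adjusted p = 0.0148) and in KO liver (log2 fold change -0.85 ± 0.10 SE, adjusted p = 0.00353), as tested with limma across 17386 genes with a mean of at least 0.1 FPKM and taken as changed when the adjusted p did not exceed 0.1. The floxed region holds exon 3 alone, so that the gene-level value also counts whatever is transcribed from the remaining exons. The library of KO liver replicate 3 stood apart from the other 11: it held Xist at 158 FPKM, against at most 0.14 FPKM elsewhere, and 0 FPKM of 4 genes of the Y chromosome (Eif2s3y, Ddx3y, Kdm5d and Uty), which summed to between 48.4 and 62.1 FPKM in the other libraries. The methods of the study name male mice only, and results of the 9 genes in KO liver are therefore also given without this library, which the other genes named below were not tested without. Read counts were not used here, and the spacing of the lowest values in each library put the depth at an estimated 34.6 to 49.9 reads per FPKM and kilobase. Nags, the lowest of the 9 genes in every library, then rested on about 1028 to 1774 reads per kilobase.

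Entry of ammonia into the cycle takes place in the mitochondria. Nags (ENSMUSG00000048217, chr11:102145513-102149477, plus strand) makes N-acetylglutamate, the obligatory activator of Cps1, and was at 25.2, 26.7 and 22.5 FPKM in the 3 WT hepatocyte libraries, 31.2, 44.9 and 35.4 FPKM in KO hepatocytes, 32.8, 35.2 and 25.3 FPKM in WT liver and 31.4, 29.9 and 32.6 FPKM in KO liver. All 3 KO hepatocyte values lay above the 3 WT hepatocyte values, whereas the values of WT and KO liver overlapped. Cps1 (ENSMUSG00000025991, chr1:67123026-67231259, plus strand) joins ammonia and bicarbonate to carbamoyl phosphate, the committed step, and was at 764, 625 and 618 FPKM in the 3 WT hepatocyte libraries, 851, 1166 and 1186 FPKM in KO hepatocytes, 708, 555 and 630.0 FPKM in WT liver and 305, 325 and 346 FPKM in KO liver. Its values fell into 3 levels without overlap, with KO hepatocytes highest, KO liver lowest and both WT groups between them. Otc (ENSMUSG00000031173, chrX:10252305-10321024, plus strand) passes the carbamoyl group to ornithine to form citrulline, and was at 224, 219 and 200.2 FPKM in the 3 WT hepatocyte libraries, 229, 185 and 195 FPKM in KO hepatocytes, 245, 231 and 215 FPKM in WT liver and 191, 121 and 182 FPKM in KO liver. The hepatocyte groups overlapped for Otc, while all 3 KO liver values lay below those of WT liver, with KO liver replicate 2 far below the other KO liver libraries.

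Ass1 and Asl act in the cytosol. Ass1 (ENSMUSG00000076441, chr2:31470207-31520672, plus strand) condenses citrulline with aspartate, and was at 923, 1109 and 1179.7 FPKM in the 3 WT hepatocyte libraries, 1720.5, 1351 and 1381 FPKM in KO hepatocytes, 1538, 1087 and 1285 FPKM in WT liver and 650.0, 719.6 and 811 FPKM in KO liver. KO hepatocytes lay above WT hepatocytes and KO liver below WT liver, without overlap in either compartment. Asl (ENSMUSG00000025533, chr5:130011258-130029247, minus strand) splits argininosuccinate into arginine and fumarate, and was at 301, 331 and 333 FPKM in the 3 WT hepatocyte libraries, 322, 243 and 342 FPKM in KO hepatocytes, 366, 312 and 375 FPKM in WT liver and 170.3, 189.8 and 192 FPKM in KO liver. Its KO liver values stood below those of the other 9 libraries, and the other groups overlapped.

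A pair of mitochondrial carriers ties the compartments of the cycle together. Slc25a15 (ENSMUSG00000031482, chr8:22375551-22398597, minus strand) exchanges ornithine for citrulline across the inner membrane, and was at 87.02, 91.8 and 77.6 FPKM in the 3 WT hepatocyte libraries, 129, 155 and 106 FPKM in KO hepatocytes, 96.1, 75.1 and 80.7 FPKM in WT liver and 70.7, 92.6 and 93.4 FPKM in KO liver. KO hepatocytes exceeded the other 9 libraries, which overlapped among themselves. Slc25a13 (ENSMUSG00000015112, chr6:6041218-6217173, minus strand), known as citrin, exports aspartate for the reaction of Ass1, and was at 74.1, 79.2 and 79.2 FPKM in the 3 WT hepatocyte libraries, 86.2, 85.4 and 87.6 FPKM in KO hepatocytes, 85.3, 78.6 and 84.9 FPKM in WT liver and 79.4, 77.5 and 77.02 FPKM in KO liver. KO hepatocytes were again highest, but by little, and the groups of whole liver overlapped. Glud1 and Gls2 release ammonia from glutamate and from glutamine, respectively. Glud1 (ENSMUSG00000021794, chr14:34310727-34345265, plus strand) was at 737, 703 and 556 FPKM in the 3 WT hepatocyte libraries, 424, 641 and 406 FPKM in KO hepatocytes, 596, 622 and 573 FPKM in WT liver and 569.8, 574 and 612 FPKM in KO liver. The values of the 4 groups overlapped, and KO hepatocyte replicate 2 stood above the other libraries of its group. Gls2 (ENSMUSG00000044005, chr10:128194457-128210004, plus strand) was at 155, 160.1 and 184 FPKM in the 3 WT hepatocyte libraries, 122, 105 and 98.5 FPKM in KO hepatocytes, 177, 147 and 178 FPKM in WT liver and 50.3, 76.7 and 58.6 FPKM in KO liver. In contrast to Cps1, Otc, Ass1 and Asl, Gls2 was below WT without overlap in KO hepatocytes and in KO liver. It was lowest in KO liver.

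**Figure D1:**
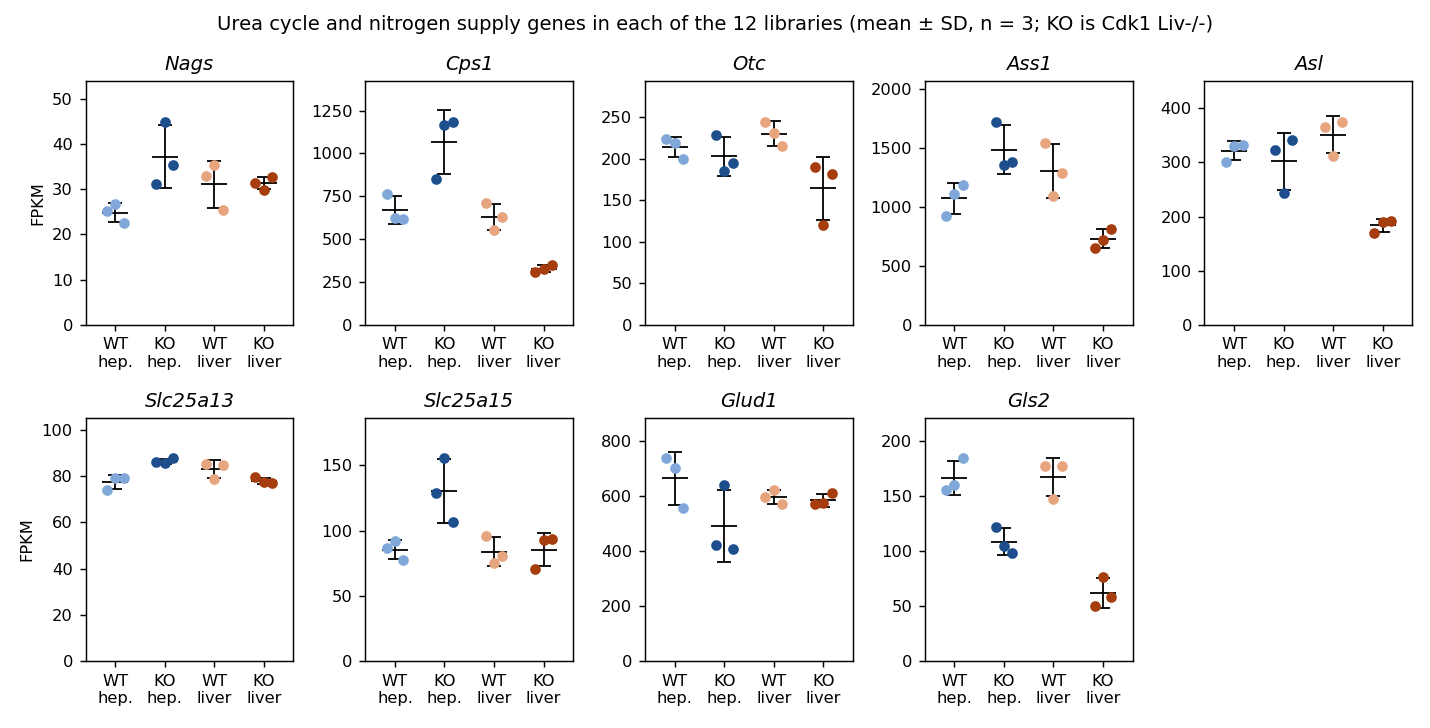
FPKM (vertical axis, from 0) of each of the 9 genes in the 12 libraries, grouped along the horizontal axis into WT and KO hepatocytes (hep.) and WT and KO whole liver; points are libraries, and the bars are the mean ± SD of 3. For Cps1, Ass1, Asl and Gls2 the 3 points of KO liver lie below the other 9, whereas Glud1, Nags and both carriers overlap between WT and KO liver.

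In order of level, Ass1 was highest and Nags lowest in each of the 4 groups. WT hepatocytes held Ass1 at 1070.3 ± 133 FPKM (SD, n = 3), followed by Cps1 at 669 ± 82.2 FPKM and Glud1 at 665 ± 96.01 FPKM (SD, n = 3), and the libraries of the latter pair overlapped. Asl at 322 ± 17.97 FPKM, Otc at 214 ± 12.3 FPKM and Gls2 at 167 ± 15.6 FPKM (SD, n = 3) came next, each apart from its neighbours. Slc25a15 at 85.5 ± 7.26 FPKM and Slc25a13 at 77.5 ± 2.96 FPKM overlapped, and Nags stood at 24.8 ± 2.12 FPKM (SD, n = 3). KO liver had a different order: Ass1 at 727 ± 80.98 FPKM, then Glud1 at 585 ± 23.3 FPKM, and only then Cps1 at 326 ± 20.6 FPKM (SD, n = 3), each apart from the next. Gls2 at 61.9 ± 13.5 FPKM (SD, n = 3) ranked below both carriers there, whereas it ranked above them in WT liver at 167 ± 17.3 FPKM (SD, n = 3). Together the 9 genes made up 0.501, 0.489 and 0.472% of the summed FPKM of the 3 WT hepatocyte libraries and 0.561, 0.613 and 0.583% in KO hepatocytes. Their share was 0.553, 0.452 and 0.497% in WT liver and 0.314, 0.327 and 0.351% in KO liver. The KO hepatocyte shares were the highest of the 12 and the KO liver shares the lowest.

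Whole liver of KO mice held less of the transcripts of Cps1, Otc, Ass1 and Asl than WT liver. Mean FPKM fell by 48.4% for Cps1, by 47.7% for Asl and by 44.2% for Ass1, and that of Gls2, outside the cycle, fell by 63.05%. Passing the test were Gls2 (log2 fold change -1.45 ± 0.17 SE, adjusted p = 0.00357), Cps1 (log2 fold change -0.95 ± 0.11 SE, adjusted p = 0.00319), Asl (log2 fold change -0.93 ± 0.09 SE, adjusted p = 0.00239), Ass1 (log2 fold change -0.83 ± 0.15 SE, adjusted p = 0.0120) and Otc (log2 fold change -0.51 ± 0.18 SE, adjusted p = 0.0783). Thus 5 of 9 genes fell, against 7.53% of the 17386 genes tested, and the same 5 were those whose 3 KO values lay below the 3 WT values (8.94% of genes tested; 43.2% lay above). None of the 9 rose, while 38% of the genes tested did; limma called 0, and the count was 0 at an unadjusted p under 0.05 and 0 by a two-sample test with q-values. Slc25a13 (-0.09, adjusted p = 0.225), Glud1 (-0.03, adjusted p = 0.766), Nags (0.02, adjusted p = 0.912) and Slc25a15 (0.02, adjusted p = 0.916) did not pass, with 95% intervals of -0.21 to 0.04, -0.18 to 0.13, -0.29 to 0.34 and -0.33 to 0.38 on the log2 scale. In this bulk tissue, fewer hepatocytes and less RNA of a gene per hepatocyte cannot be told apart.

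The median log2 fold change of the 9 genes in whole liver was -0.51, and that of all genes tested was 0.18. Scaling by median-ratio size factors moved the latter to 0.03 and the share of higher genes among those called from 83.5% to 54.97%. Relative to the median of all genes, the log2 difference was -1.63 for Gls2, -1.13 for Cps1, -1.11 for Asl, -1.01 for Ass1 and -0.69 for Otc. It was -0.27 for Slc25a13, -0.21 for Glud1, -0.16 for Nags and -0.16 for Slc25a15, so that the sign for the latter pair depends on the scaling. With median-ratio size factors Slc25a13 (-0.29, adjusted p = 0.0264) and Glud1 (-0.23, adjusted p = 0.0389) also passed as lower, which made 7 of 9, while the genes called lower among all 17386 rose from 1310 to 2675. By the two-sample test with q-values Slc25a13 passed as lower too (0.0631), which made 6 of 9, beside 2073 lower genes among all tested. Over all alternatives the adjusted p ran from 0.0264 to 0.739 for Slc25a13 and from 0.0389 to 0.986 for Glud1. The call of Otc was lost without WT liver replicate 1 (adjusted p = 0.200), replicate 2 (0.167) or replicate 3 (0.132) and without a filter on low values (0.159). It was kept without KO liver replicate 2, though the log2 fold change shrank from -0.51 to -0.30, and its adjusted p ran from 0.0346 to 0.200 over all alternatives. Leaving out the Xist-bearing library, KO liver replicate 3, gave 5 lower genes.

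Isolated KO hepatocytes differed from WT hepatocytes in another way. The genes of the entry step rose, Cps1 by a fold of 1.58 (log2 fold change 0.66 ± 0.17 SE, adjusted p = 0.0570) and Nags by a fold of 1.48 (log2 fold change 0.56 ± 0.15 SE, adjusted p = 0.0634), together with the ornithine carrier Slc25a15 at a fold of 1.51 (log2 fold change 0.59 ± 0.15 SE, adjusted p = 0.0571). Gls2 fell (log2 fold change -0.62 ± 0.11 SE, adjusted p = 0.0225). The 3 higher genes of 9 compare with 12.1% of all genes tested and the 1 lower gene with 6.61%. By overlap alone, 5 genes had all KO values above all WT values (20.6% of genes tested), Ass1 and Slc25a13 besides those called, and 1 had them below (13.4%). Ass1 was just outside the threshold (log2 fold change 0.47 ± 0.15 SE, adjusted p = 0.103), and Slc25a13 did not pass either (0.16, adjusted p = 0.166). For Asl (-0.10, adjusted p = 0.672), Otc (-0.08, adjusted p = 0.642) and Glud1 (-0.46, adjusted p = 0.206) the 95% intervals were -0.45 to 0.24, -0.33 to 0.17 and -0.96 to 0.04 on the log2 scale. The median of the 9 genes was 0.16, and that of all genes tested was 0.05.

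The calls in hepatocytes depended on single libraries, more than the estimates did. Over the fits that omit 1 of the 6 libraries, the log2 fold change lay between 0.58 and 0.82 for Cps1, 0.42 and 0.68 for Nags and 0.46 and 0.73 for Slc25a15, while the genes called higher among all tested fell from 2108 to between 1157 and 1622. Those called lower went from 1149 to between 402 and 1224, so that the share of all genes depends on single libraries too. The count of 3 higher genes became 1 without WT hepatocyte replicate 1, 1 without WT replicate 2, 0 without WT replicate 3 and 1 without KO hepatocyte replicate 3, and 2 without KO replicate 1 or 2. Cps1 lost its call without WT replicate 2 (adjusted p = 0.141), WT replicate 3 (0.143), KO replicate 2 (0.139) and KO replicate 3 (0.154). Nags lost it without WT replicate 1 (0.153), WT replicate 2 (0.104), WT replicate 3 (0.154) and KO replicate 3 (0.137), and Slc25a15 without WT replicate 1 (0.143), WT replicate 3 (0.142) and KO replicate 1 (0.132). Gls2 kept its call whichever of the 6 libraries was left out, and without KO replicate 2 Glud1 also passed as lower (-0.67, adjusted p = 0.0641), for a count of 2. Testing every gene with a value above 0 left 0 genes called higher, and a joint fit of all 12 libraries gave 5, with Ass1 (adjusted p = 0.0492) and Slc25a13 (0.0714) added. Across all alternatives the adjusted p ran from 0.00778 to 0.163 for Cps1, 0.0180 to 0.154 for Nags, 0.0188 to 0.143 for Slc25a15, 0.0492 to 0.252 for Ass1, 0.0481 to 0.585 for Slc25a13, 0.0625 to 0.424 for Glud1 and 0.0133 to 0.0993 for Gls2. Median-ratio size factors moved the share of higher genes among all calls in hepatocytes from 64.7% to 53.2%, and scaling to the hepatocyte identity genes moved it to 77.6%.

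**Figure D2:**
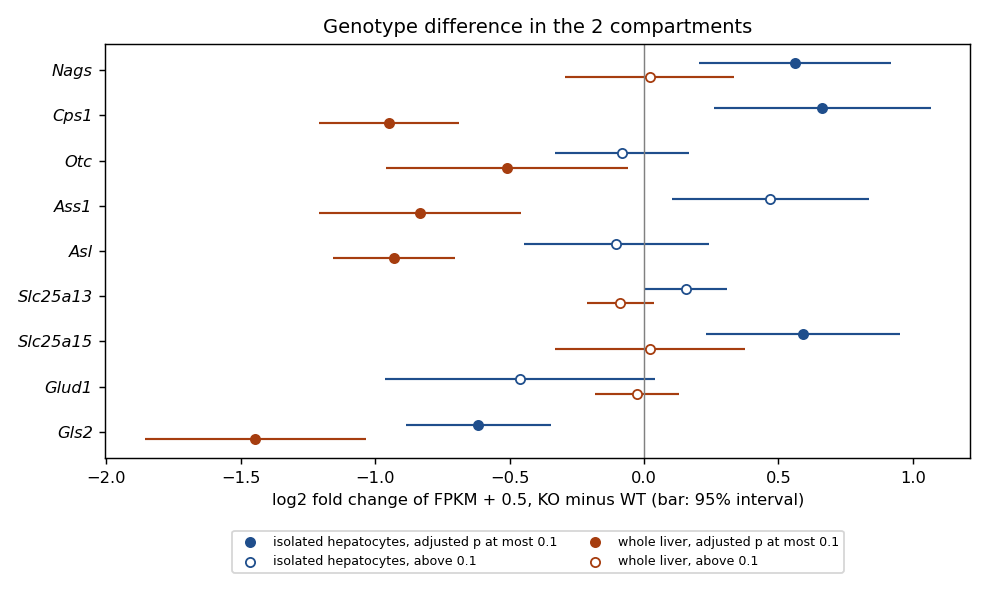
Log2 fold change of FPKM + 0.5, KO minus WT, with its 95% interval (horizontal axis) for each of the 9 genes in isolated hepatocytes (blue) and whole liver (red); filled points passed the test, with an adjusted p no higher than 0.1. Cps1 lies at 0.66 in hepatocytes and at -0.95 in whole liver, whereas Gls2 is below 0 in both, at -0.62 and -1.45.

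The difference between the compartments was tested itself, as the KO minus WT difference in hepatocytes minus that in whole liver. It was 1.61 ± 0.20 (SE; adjusted p = 0.0100) for Cps1, 1.30 ± 0.22 (SE; adjusted p = 0.0307) for Ass1, 0.83 ± 0.21 (SE; adjusted p = 0.0637) for Gls2 and 0.83 ± 0.18 (SE; adjusted p = 0.0477) for Asl on the log2 scale. These 4 of 9 genes were called higher, against 2.35% of all genes tested. For Cps1 and Ass1 the estimates in the compartments had opposite signs, for Asl the estimate in hepatocytes did not pass (-0.10), and Gls2 was lower in both. Lower genes numbered 0 of 9 by limma, against 7.49% of all genes tested, and 0 at an unadjusted p under 0.05; no other tool was run on this difference. Slc25a13 (0.24, adjusted p = 0.106), Nags (0.54, adjusted p = 0.145), Slc25a15 (0.57, adjusted p = 0.148), Otc (0.43, adjusted p = 0.266) and Glud1 (-0.43, adjusted p = 0.281) did not pass, so that the rise of Nags and Slc25a15 in hepatocytes was not shown to differ from whole liver. The median was 0.57 for the 9 genes and -0.11 for all genes, and median-ratio size factors moved the share of higher genes among the calls from 23.9% to 48.7%. With these size factors Slc25a13 also passed as higher (0.36, adjusted p = 0.0917), which made 5 of 9. Scaling to the hepatocyte identity genes moved that share to 42.7%. Without WT liver replicate 1 the count was 2, since Asl (adjusted p = 0.136) and Gls2 (0.162) were lost, and the genes called higher among all tested fell from 409 to 35, so that the share of all genes also depends on single libraries. Gls2 was also lost without WT hepatocyte replicate 1 (0.108), KO hepatocyte replicate 1 (0.104), WT liver replicate 3 (0.119) and KO liver replicate 3 (0.114), the library with Xist, and without KO hepatocyte replicate 2 Glud1 was called lower (-0.64, adjusted p = 0.0602). Over all alternatives the adjusted p ran from 0.00992 to 0.136 for Asl, 0.0463 to 0.162 for Gls2, 0.0917 to 0.237 for Slc25a13 and 0.0602 to 0.456 for Glud1.

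Within the KO genotype, some of the 9 genes were higher in isolated hepatocytes than in whole liver. Cps1 was 3.24-fold higher (log2 fold change 1.70 ± 0.15 SE, adjusted p = 0.00109) and Ass1 2.04-fold (log2 fold change 1.03 ± 0.15 SE, adjusted p = 0.00432). Gls2 (0.82, adjusted p = 0.0139), Asl (0.70, adjusted p = 0.0141) and Slc25a15 (0.60, adjusted p = 0.0411) were higher as well. Otc (0.33, adjusted p = 0.238), Nags (0.23, adjusted p = 0.243) and Glud1 (-0.29, adjusted p = 0.277) did not pass. That made 5 of 9 genes, against 8.86% of all genes tested, and 6 had no overlap between the groups (10.5% of all genes), Slc25a13 being the other (0.15, adjusted p = 0.123), whereas 40.3% of all genes lay below without overlap. Lower were 0 of 9 by limma, while 35.9% of all genes were, with 0 at an unadjusted p under 0.05 and 0 by the two-sample test. The median was 0.60 for the 9 genes and -0.19 for all genes; median-ratio size factors moved the latter to -0.02 and the share of higher genes among the calls from 19.8% to 42.8%. Relative to the median of all genes the log2 difference was 1.89 for Cps1, 1.22 for Ass1 and -0.10 for Glud1. With median-ratio size factors Slc25a13 (0.37, adjusted p = 0.0119), Nags (0.45, adjusted p = 0.0433) and Otc (0.55, adjusted p = 0.0957) also passed as higher, which made 8 of 9, while the genes called higher among all 17386 rose from 1540 to 2994. Slc25a13 was also called higher without a filter on low values, in the joint fit, by the two-sample test and with scaling to the hepatocyte identity genes, and its adjusted p ran from 0.00517 to 0.280 over all alternatives. Slc25a15 lost its call without KO liver replicate 1 (adjusted p = 0.107), Nags gained one without KO hepatocyte replicate 1 (0.35, adjusted p = 0.0904), and Glud1 passed as lower without KO hepatocyte replicate 2 (-0.50, adjusted p = 0.0212); over the alternatives these ran from 0.0102 to 0.107, 0.0433 to 0.502 and 0.0212 to 0.809. Without KO liver replicate 3 the count of higher genes was 5, while genes called higher among all tested fell from 1540 to 860. Over all fits that omit a library the latter ran from 860 to 1858, so that this share of all genes depends on single libraries.

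Between WT hepatocytes and WT liver none of the 9 genes was called. Limma gave 0 higher and 0 lower, against 0.104% and 1.42% of all genes tested, with 0 at an unadjusted p under 0.05 and 0 by the two-sample test in each direction, and no gene was free of overlap between the groups (5.28% of all genes higher and 20.7% lower). The largest differences were -0.31 (adjusted p = 0.287) for Nags, with a 95% interval of -0.64 to 0.02, and -0.28 (adjusted p = 0.369) for Ass1, with -0.66 to 0.10. Cps1 stood at 0.08 (-0.22 to 0.39), and the median of the 9 genes was -0.10, beside -0.10 for all genes. Without WT hepatocyte replicate 3, Glud1 passed as higher (0.27, adjusted p = 0.0678; 0.0678 to 0.800 over the alternatives), and among all genes the calls then went from 18 to 413 higher and from 247 to 2656 lower. Leaving out any other library lowered them, to between 1 and 8 higher and between 0 and 57 lower. With the replicate number as a term there were 0 of each, so that the shares above depend on single libraries and on the fit. The genotype and compartment comparisons share their libraries, since each group enters a pair of them, and they are not independent of each other.

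Read across all 12 libraries, the 3 KO liver libraries were below the other 9 for 294 genes, 1.69% of those tested, and 4 of the 9 genes were among them: Asl, Ass1, Cps1 and Gls2. KO liver was above the other 9 libraries for 21.7% of genes tested and for 0 of the 9. Each of the 9 genes was set beside the mean profile of the other 8, and Ass1 (Pearson r = 0.88 over the 12 libraries, as a description) and Cps1 (0.82) followed it most closely. Asl (0.79), Gls2 (0.62), Otc (0.58), Slc25a13 (0.56) and Slc25a15 (0.38) followed less, Nags (0.02) hardly, and Glud1 was at -0.21. Other genes that were like the mean profile of all 9, among 5177 with a mean of at least 10 FPKM, included Gm5424 (0.93), Upp2 (0.91), Uroc1 (0.91) and Tdo2 (0.89), over libraries that fall into the 4 groups. Upp2, uridine phosphorylase, was at 86.6, 84.02 and 118 FPKM in the 3 WT hepatocyte libraries, 119, 60.6 and 126 FPKM in KO hepatocytes, 116, 97.7 and 119 FPKM in WT liver and 12.5, 9.03 and 10.3 FPKM in KO liver, with KO liver far below every other library. Uroc1 acts in the breakdown of histidine, and Tdo2 begins that of tryptophan. Gm5424 is a processed pseudogene of Ass1 at chr10:62071123-62072362, 99.5% identical to it over 1240 bases, and it held between 2.70% and 3.16% of the FPKM of Ass1 in every library, so that its likeness cannot be told apart from reads of Ass1 shared between the copies. Glud1 has copies of 97.6% identity over 656 bases in Glud-ps, at a mean of 5.96 FPKM, and over 287 bases in Gm43444, at 0.364 FPKM. On the opposite strand Nags overlaps Gm11586 (1.1 FPKM) and Gls2 overlaps Spryd4 (30.02 FPKM); the library kit is stranded, but whether counting used the strand is not stated.

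Promoter sequences, 250 bases before to 50 after the start of the transcript, were taken from RefSeq (GRCm38.p6), where 6 of the 9 genes matched, with 7 windows of 300 bases. The promoter table used here held no entry for Asl, Cps1 and Gls2. Shown are Ass1 and Otc, which fell together in KO liver, Nags and the upstream window of Slc25a15, which rose together in KO hepatocytes, and Slc25a13, whose window held a motif match. Each reads 5′ to 3′ on the strand of its gene, with the base at the start in capitals and, in Slc25a13, also the match. Ass1 is chr2:31470020-31470319 on the plus strand, Otc chrX:10252055-10252354 on the plus strand, Nags chr11:102145263-102145562 on the plus strand, Slc25a15 chr8:22398572-22398871 on the minus strand and Slc25a13 chr6:6217124-6217423 on the minus strand.
Ass1: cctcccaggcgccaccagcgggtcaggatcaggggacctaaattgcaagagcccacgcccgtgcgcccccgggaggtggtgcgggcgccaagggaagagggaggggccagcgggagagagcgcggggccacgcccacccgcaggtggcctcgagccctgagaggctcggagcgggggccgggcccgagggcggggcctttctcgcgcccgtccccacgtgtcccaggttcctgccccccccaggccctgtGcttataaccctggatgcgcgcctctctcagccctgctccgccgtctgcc
Otc: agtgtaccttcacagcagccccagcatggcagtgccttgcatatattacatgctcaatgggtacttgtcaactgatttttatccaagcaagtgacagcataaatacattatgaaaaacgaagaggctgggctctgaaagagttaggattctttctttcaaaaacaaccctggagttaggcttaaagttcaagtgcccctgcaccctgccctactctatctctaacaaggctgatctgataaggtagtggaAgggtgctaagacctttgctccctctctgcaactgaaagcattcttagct
Nags: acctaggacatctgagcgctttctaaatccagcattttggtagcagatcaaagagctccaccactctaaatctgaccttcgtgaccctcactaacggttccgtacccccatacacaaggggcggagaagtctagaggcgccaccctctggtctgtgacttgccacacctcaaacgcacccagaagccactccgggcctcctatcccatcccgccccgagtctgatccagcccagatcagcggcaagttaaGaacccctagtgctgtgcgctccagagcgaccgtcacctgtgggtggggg
Slc25a15: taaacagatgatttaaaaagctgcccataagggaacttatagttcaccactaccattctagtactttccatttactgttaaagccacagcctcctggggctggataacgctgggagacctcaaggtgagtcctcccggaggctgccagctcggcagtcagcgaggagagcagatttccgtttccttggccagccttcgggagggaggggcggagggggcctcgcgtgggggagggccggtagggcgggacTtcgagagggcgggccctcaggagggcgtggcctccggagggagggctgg
Slc25a13: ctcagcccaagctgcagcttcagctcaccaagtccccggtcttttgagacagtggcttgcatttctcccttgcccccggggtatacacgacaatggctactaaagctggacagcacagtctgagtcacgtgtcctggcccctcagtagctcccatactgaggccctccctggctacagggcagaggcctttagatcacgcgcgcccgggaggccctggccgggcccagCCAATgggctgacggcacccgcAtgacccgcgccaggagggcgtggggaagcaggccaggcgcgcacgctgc
The window of Ass1 was 74.0% G and C with 27 CpG, that of Otc 44.3% with 1 CpG, Nags 57.7% with 14, Slc25a15 60.7% with 15 and Slc25a13 65.0% with 17, against medians of 52.7% and 7 over 32851 promoters. Glud1 reached 81.0% with 51 CpG, and the downstream window of Slc25a15 79.0% with 51. On both strands, CCAAT was found in Slc25a13 only, in the capitals shown, and it is present in 37.4% of all promoters of this length. No other match was found in the 7 windows for TATAAA (13.6% of all promoters), TGACGTCA (1.79%), CAAAGTCCA (0.475%), TTGCGCAA (0.183%) or the palindromic glucocorticoid response element (0.00913%). The pair that fell in KO liver thus differed in base composition and shared none of these letters.

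Around the cycle, 30 genes of amino acid and nitrogen handling were listed, and all of them passed the filter on low values. In hepatocytes 8 rose and 4 fell, against 12.1% and 6.61% of all genes tested, and the median log2 fold change was 0.04. In whole liver 7 rose and 10 fell, against 38% and 7.53% of all genes tested, with a median of -0.07. Oat, ornithine aminotransferase, was at 50.8, 34.8 and 36.1 FPKM in the 3 WT hepatocyte libraries, 436, 246 and 209.8 FPKM in KO hepatocytes, 71.7, 56.2 and 64.3 FPKM in WT liver and 129, 54.1 and 166 FPKM in KO liver. Prodh, which begins proline breakdown, was at 10.5, 7.54 and 3.93 FPKM in the 3 WT hepatocyte libraries, 48.04, 32.6 and 55.7 FPKM in KO hepatocytes, 12.1, 11.2 and 5.97 FPKM in WT liver and 11.99, 3.53 and 10.99 FPKM in KO liver. KO hepatocytes exceeded the other 9 libraries for both, and KO liver replicate 2 was the lowest of its group. The change in hepatocytes was 2.80 ± 0.30 (SE; adjusted p = 0.00457) for Oat and 2.62 ± 0.36 (SE; adjusted p = 0.0101) for Prodh, whereas Aldh4a1, which acts after both on the way to glutamate, did not pass there (-0.31, adjusted p = 0.249). For Oat and Prodh the change differed from that in whole liver by 2.09 (adjusted p = 0.0656) and 2.86 (adjusted p = 0.0544). The alanine aminotransferases, which move nitrogen between alanine and glutamate, parted. Gpt was at 56.97, 52.6 and 54.99 FPKM in the 3 WT hepatocyte libraries, 124, 68.2 and 108 FPKM in KO hepatocytes, 82.1, 62.4 and 67.1 FPKM in WT liver and 27.1, 14.4 and 20.98 FPKM in KO liver. Gpt2, its mitochondrial counterpart, was at 15.8, 13.7 and 17.1 FPKM in the 3 WT hepatocyte libraries, 76.9, 80.6 and 83.8 FPKM in KO hepatocytes, 13.99, 12.3 and 16.9 FPKM in WT liver and 42.6, 56.7 and 42.98 FPKM in KO liver. Gpt rose in hepatocytes (0.82, adjusted p = 0.0659) and fell in whole liver (-1.77, adjusted p = 0.00518), a difference of 2.59 (adjusted p = 0.0121), whereas Gpt2 rose in both, by 2.34 (adjusted p = 0.000409) and 1.68 (adjusted p = 0.00205).

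Also higher in hepatocytes were Slc7a2 (0.98, adjusted p = 0.0150), a carrier of arginine and ornithine, the mitochondrial glutamate carrier Slc25a22 (0.79, adjusted p = 0.0148), Pycr1 (0.59, adjusted p = 0.0458) of proline synthesis and the amino acid transporter Slc38a4 (0.40, adjusted p = 0.0238). Lower were Glul (-0.996, adjusted p = 0.0488), the glutamine synthetase of pericentral hepatocytes, Got2 (-0.46, adjusted p = 0.0383), the aspartate carrier Slc25a12 (-0.44, adjusted p = 0.0415) and Slc25a2 (-0.36, adjusted p = 0.0994), whose level was close to 0. Glul was at 189.8, 134 and 98.01 FPKM in the 3 WT hepatocyte libraries, 61.95, 66.5 and 75.4 FPKM in KO hepatocytes, 208, 264 and 152 FPKM in WT liver and 183, 65.6 and 152 FPKM in KO liver. All KO hepatocyte values were below those of WT hepatocytes, and the liver groups overlapped. In whole liver the other higher genes were Asns (1.01, adjusted p = 0.0363), asparagine synthetase, Aldh18a1 (0.82, adjusted p = 0.0229) and Pycr1 (0.71, adjusted p = 0.0122) of proline synthesis, Odc1 (0.58, adjusted p = 0.0488) of polyamine synthesis, Slc25a22 (0.46, adjusted p = 0.0504) and Slc7a1 (0.30, adjusted p = 0.0517). Lower besides Gpt were Car5a (-1.28, adjusted p = 0.0764), the mitochondrial carbonic anhydrase that supplies bicarbonate to Cps1, and Got1 (-1.17, adjusted p = 0.0567), the cytosolic aspartate aminotransferase. Car5a was at 23.6, 21.5 and 17.4 FPKM in the 3 WT hepatocyte libraries, 16.3, 17.7 and 14.8 FPKM in KO hepatocytes, 28.1, 26.98 and 23.7 FPKM in WT liver and 16.98, 4.70 and 14.1 FPKM in KO liver. Got1 was at 119.9, 137 and 176 FPKM in the 3 WT hepatocyte libraries, 155, 136 and 125 FPKM in KO hepatocytes, 157, 118 and 213 FPKM in WT liver and 47.2, 115 and 63.1 FPKM in KO liver. KO liver replicate 2 stood apart in both, lowest for Car5a and highest of its group for Got1. The remaining lower genes were Aspg (-0.78), Slc38a3 (-0.58), Aldh4a1 (-0.45), Slc25a2 (-0.37), Slc38a4 (-0.33), Got2 (-0.28) and Slc25a12 (-0.26). The compartment difference passed for 6 of 30, all of them higher (2.35% of all genes tested; 7.49% were lower), Slc38a4 (0.73, adjusted p = 0.0360), Gpt2 (0.66, adjusted p = 0.0869) and Slc38a3 (0.46, adjusted p = 0.0472) being the others, with a median of 0.03. KO hepatocytes held 10 of 30 higher and 7 lower than KO liver, against 8.86% and 35.9% of all genes tested.

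**Figure D3:**
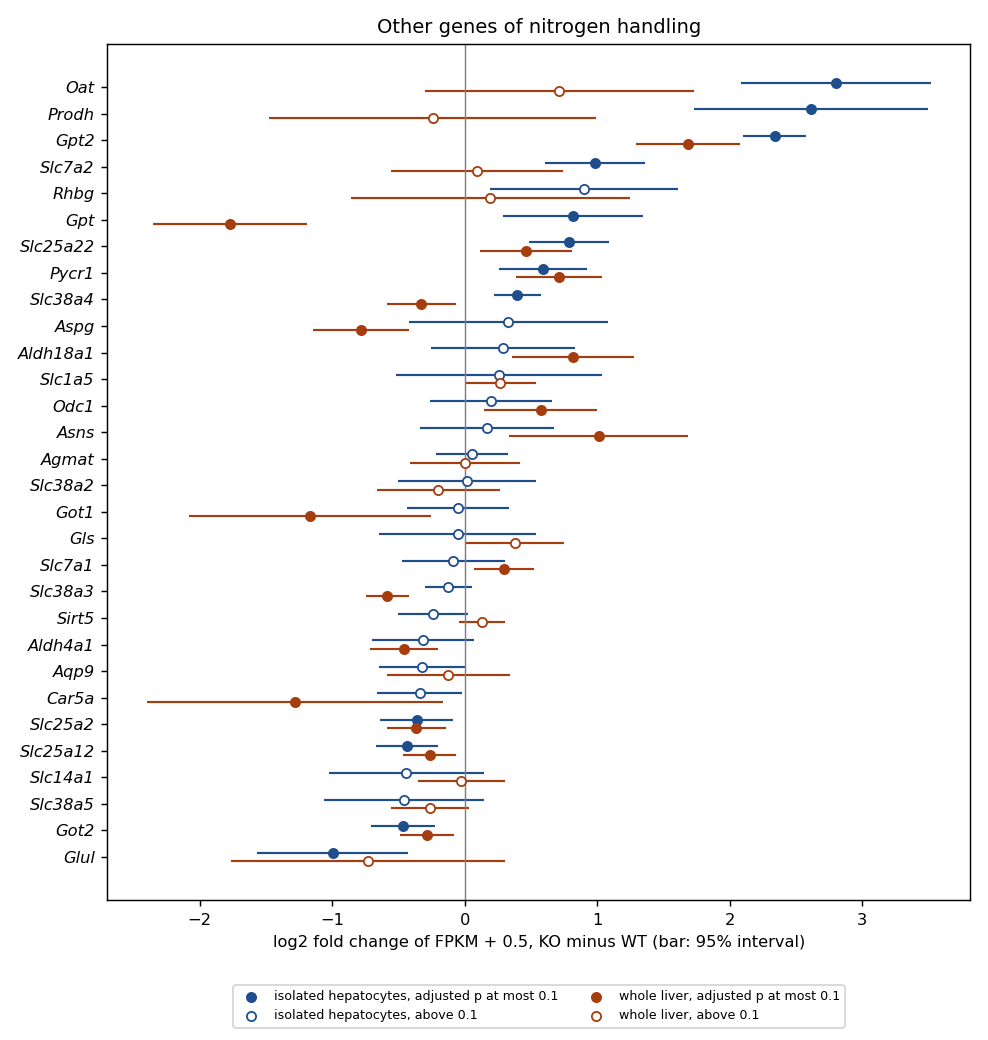
Log2 fold change of FPKM + 0.5, KO minus WT, with its 95% interval (horizontal axis) for 30 other genes of nitrogen handling in isolated hepatocytes (blue) and whole liver (red); filled points passed the test, with an adjusted p no higher than 0.1. Oat, Prodh and Gpt2 lie at 2.80, 2.62 and 2.34 in hepatocytes, and Gpt lies at 0.82 in hepatocytes and -1.77 in whole liver.

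Of 13 genes listed as possible regulators of the cycle, 1 passed the test in hepatocytes, Hnf4a (0.45, adjusted p = 0.0875). It rose, as did 12.1% of all genes tested, and the median of the 13 was 0.11. Hnf4a, a transcription factor of hepatocyte identity, was at 111, 101 and 102 FPKM in the 3 WT hepatocyte libraries, 141, 120.3 and 170.3 FPKM in KO hepatocytes, 92.6, 89.8 and 99.2 FPKM in WT liver and 84.3, 88.02 and 83.5 FPKM in KO liver. In whole liver Cebpb rose (0.57, adjusted p = 0.0685), and Foxa2 (-0.60, adjusted p = 0.0679), Klf15 (-0.53, adjusted p = 0.0366), Cebpa (-0.51, adjusted p = 0.00896) and the glucocorticoid receptor Nr3c1 (-0.21, adjusted p = 0.0717) fell, 1 higher and 4 lower of 13 against 38% and 7.53% of all genes tested, with a median of -0.07. Cebpa was at 77.1, 69.3 and 74.5 FPKM in the 3 WT hepatocyte libraries, 69.5, 67.1 and 91.5 FPKM in KO hepatocytes, 95.8, 89.7 and 79.3 FPKM in WT liver and 60.9, 59.5 and 65.3 FPKM in KO liver. The KO liver values of Cebpa lay below the other 9 libraries. The compartment difference passed for Hnf4a (0.58, adjusted p = 0.0681) and Cebpa (0.54, adjusted p = 0.0905), 2 of 13 higher against 2.35% of all genes tested.

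Of 15 other genes of periportal hepatocytes, 2 rose and 3 fell in hepatocytes, against 12.1% and 6.61% of all genes tested (median -0.17), and 3 rose and 5 fell in whole liver, against 38% and 7.53% (median -0.25). Cyp2f2, a cytochrome P450 of periportal cells, was at 55.05, 69.5 and 73.6 FPKM in the 3 WT hepatocyte libraries, 109, 34.6 and 77.9 FPKM in KO hepatocytes, 77.04, 55.98 and 58.1 FPKM in WT liver and 21.2, 15.98 and 15.3 FPKM in KO liver. It fell in whole liver (-1.84, adjusted p = 0.00199), as did Sds (-2.20, adjusted p = 0.0449) and Hal (-0.96, adjusted p = 0.0293), which break down serine and histidine, Serpina1c (-0.88) and Igf1 (-0.38). Pigr, the receptor that carries immunoglobulin A across epithelia, rose in both compartments (4.18, adjusted p = 0.00136, and 2.58, adjusted p = 0.000690), as did Hsd17b13 (0.96, adjusted p = 0.00641, and 1.31, adjusted p = 0.00140), and Cdh1 rose in whole liver (0.58, adjusted p = 0.00596). In hepatocytes Hsd17b6 (-0.999, adjusted p = 0.0552), Hal (-0.77, adjusted p = 0.0426) and Apof (-0.32, adjusted p = 0.0717) fell. The compartment difference was called higher for Cyp2f2 (1.86, adjusted p = 0.0647), Pigr (1.60, adjusted p = 0.0510) and Serpina1c (0.49, adjusted p = 0.0870), 3 of 15 against 2.35% of all genes tested. Of 16 pericentral genes, Lhpp (2.00, adjusted p = 0.00734) and Cyp7a1 (1.16, adjusted p = 0.0435) rose and Nkd1 (-0.71, adjusted p = 0.0928) fell in hepatocytes (median 0.10), and Nkd1 rose (0.47) and Cyp1a2 (-2.05), Slc1a2 (-0.79) and Cyp7a1 (-0.67) fell in whole liver (median -0.23). That made 2 higher and 1 lower in hepatocytes, beside 12.1% and 6.61% of all genes tested, and 1 higher and 3 lower in whole liver, against 38% and 7.53%. Their compartment difference was higher for 3 of 16, Cyp7a1 (1.83, adjusted p = 0.0415), Lhpp (1.56, adjusted p = 0.0701) and Slc1a2 (1.49, adjusted p = 0.0784), and lower for 1, Nkd1 (-1.18, adjusted p = 0.0542), against 2.35% and 7.49% of all genes tested. The summed level of the pericentral genes in KO liver replicate 2 was 688 FPKM, against 2795 and 2355 FPKM in replicates 1 and 3. Cyp2e1 made up 363 FPKM of that sum, against 2068 and 1617.5 FPKM. Cyp1a2 ranged from 8.60 to 66.9 FPKM over the KO liver libraries. KO liver replicate 2 also had the lowest Otc, Car5a, Oat and Gpt of its group. Its part in the results of the pericentral genes and of Car5a, Oat and Gpt was not tested.

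Markers of the cell types that whole liver or a hepatocyte preparation can hold moved with genotype beside the genes of the cycle. Of all genes tested, 12.1% rose and 6.61% fell in hepatocytes, and 38% rose and 7.53% fell in whole liver, beside which the counts of each list stand. The most abundant gene of a list is the one with the highest mean over all 12 libraries, and in some lists other genes exceeded it within a group. Hepatocyte identity genes, with Alb the most abundant of 12, summed to 130635, 145952 and 141818 FPKM in WT hepatocytes, 96271, 103400.0 and 97949.7 FPKM in KO hepatocytes, 140043, 136098 and 139053 FPKM in WT liver and 118839, 113528 and 120938 FPKM in KO liver, so that the sums of both KO groups were below WT. In hepatocytes 3 of them rose and 2 fell, and in whole liver 2 rose and 5 fell, with medians of -0.39 and -0.13. By sign alone 5 were higher and 7 lower in hepatocytes, and 6 and 6 in whole liver. Hp had a higher mean in KO, at 4501 against 2021 FPKM in hepatocytes and 4382 against 2129 FPKM in whole liver. Alb itself stood at -0.56 (adjusted p = 0.376) and -0.37 (adjusted p = 0.242), with all KO values below all WT values in each compartment. That held for 6 of the 12 genes in each compartment (13.4% and 8.94% of all genes tested). All KO values lay above for 4 in hepatocytes and 2 in whole liver (20.6% and 43.2%). Stellate cell and fibroblast genes, Col3a1 the most abundant of 11 over all 12 libraries, summed to 204, 124 and 427 FPKM in WT hepatocytes, 125, 124 and 107 FPKM in KO hepatocytes, 470.0, 469 and 551 FPKM in WT liver and 929, 1162 and 866 FPKM in KO liver. They fell in hepatocytes for 2 of 11 and rose in whole liver for 6, among them Col1a1 (1.80, adjusted p = 0.00783). Dcn had a higher mean than Col3a1 in WT hepatocytes (79.5 against 69.5 FPKM) and in KO hepatocytes (37.4 against 30.5 FPKM). Monocyte and neutrophil genes, Lyz2 the most abundant of 10, summed to 51.9, 36.2 and 117 FPKM in WT hepatocytes, 48.3, 33.9 and 44.97 FPKM in KO hepatocytes, 112, 89.7 and 126 FPKM in WT liver and 185, 464 and 352 FPKM in KO liver, and 8 rose in whole liver and 1, Ccr2, in hepatocytes (1.18, adjusted p = 0.0109). Cholangiocyte genes, Spp1 the most abundant of 7, of which 6 were tested, summed to 19.7, 14.7 and 30.2 FPKM in WT hepatocytes, 67.00, 124 and 100.3 FPKM in KO hepatocytes, 59.95, 62.9 and 46.3 FPKM in WT liver and 273, 139 and 260.0 FPKM in KO liver, and 4 rose in each compartment. Spp1 alone held 18.3, 13.5 and 28.7 FPKM in WT hepatocytes and 62.96, 119.9 and 95.6 FPKM in KO hepatocytes. In whole liver it held 54.9, 57.1 and 42.45 FPKM in WT and 249, 130 and 247.5 FPKM in KO. The sums were thus mostly Spp1, and the mean of Krt19 was 0.263 FPKM in WT and 0.55 FPKM in KO hepatocytes. Sinusoidal endothelial genes, Stab1 the most abundant of 10 over all 12 libraries, summed to 167, 113 and 316 FPKM in WT hepatocytes, 80.4, 51.9 and 61.3 FPKM in KO hepatocytes, 157, 182 and 220.2 FPKM in WT liver and 200.2, 252 and 205 FPKM in KO liver, with 9 lower in KO hepatocytes, for example Lyve1 (-2.44, adjusted p = 0.0284), and 2 higher in KO liver. Fcgr2b and Clec4g had higher means than Stab1 in WT hepatocytes (34.7 and 31.3 against 29.7 FPKM) and in KO hepatocytes (13.4 and 14.1 against 10.8 FPKM).

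Kupffer cell and macrophage genes, Cd5l the most abundant of 11 over all 12 libraries, summed to 374, 203 and 689 FPKM in WT hepatocytes, 228, 169.8 and 149 FPKM in KO hepatocytes, 539, 593 and 600.1 FPKM in WT liver and 688, 945 and 716 FPKM in KO liver, with 1 lower in hepatocytes, Adgre1 (-1.40, adjusted p = 0.0790), and 4 higher in whole liver, a share like that of all genes. Clec4f had a higher mean than Cd5l in WT hepatocytes (61.8 against 59.5 FPKM) and in WT liver (94.4 against 88.9 FPKM). Erythroid genes, Hbb-bs the most abundant of 10 over all 12 libraries, summed to 209, 173 and 644 FPKM in WT hepatocytes, 109, 151 and 59.4 FPKM in KO hepatocytes, 1158, 1274 and 2226 FPKM in WT liver and 1189, 1822 and 1495 FPKM in KO liver, and 2 fell in each compartment. In KO hepatocytes Tfrc had a higher mean than Hbb-bs (41.0 against 27.1 FPKM). Lymphocyte genes, Cd79b the most abundant of 9, summed to 4.78, 3.29 and 8.82 FPKM in WT hepatocytes, 1.98, 1.38 and 1.39 FPKM in KO hepatocytes, 18.2, 20.1 and 18.2 FPKM in WT liver and 10.2, 19.00 and 14.4 FPKM in KO liver, with 4 lower in hepatocytes and 2 lower in whole liver. WT hepatocyte replicate 3 had the highest sum of its group in each of the 7 lists of other cell types, and 0 of the 9 genes were called higher in KO hepatocytes without it. Of the markers of other cell types, leaving aside a second row of Itgam, only Cftr, of the cholangiocyte list, was at 0 in any library. All 11 Kupffer cell, all 10 endothelial and all 11 stellate cell genes were lower in KO hepatocytes than in KO liver, as were 35.9% of all genes tested, with medians of -2.06, -1.71 and -2.50, against -0.66, 0.07 and -0.97 between WT hepatocytes and WT liver. KO liver, where Cps1, Otc, Ass1 and Asl were lower, had higher sums than WT liver for stellate cells, monocytes, Kupffer cells and cholangiocytes without overlap. KO hepatocytes, where Cps1 was higher, had lower sums than WT hepatocytes for endothelial cells, erythroid cells and lymphocytes and higher sums for cholangiocytes. The sums for cholangiocytes were mostly Spp1. The part of cell composition in the results of the cycle was not tested.

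**Figure D4:**
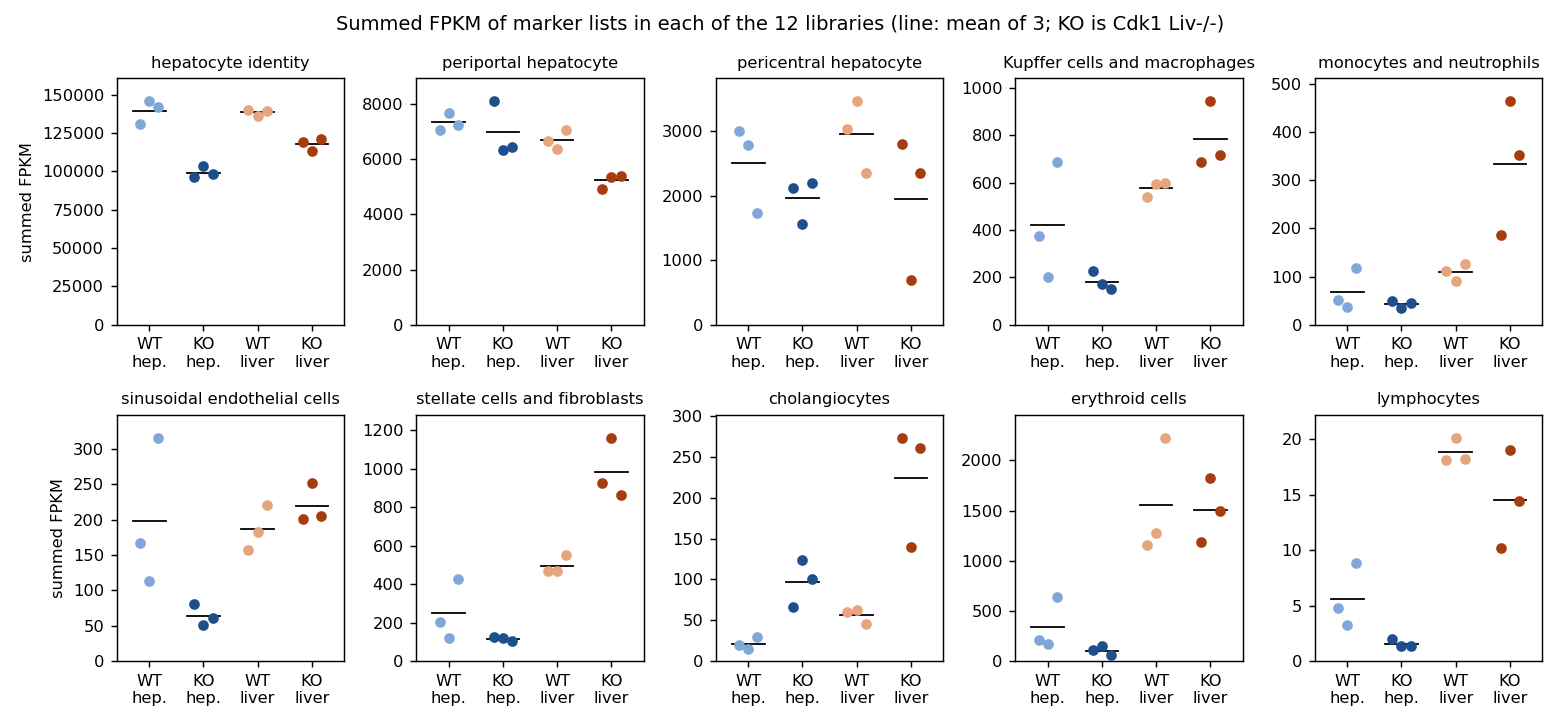
Summed FPKM (vertical axis, from 0) of the hepatocyte identity, periportal and pericentral lists and of 7 lists of other cell types in each of the 12 libraries, grouped along the horizontal axis; points are libraries and lines the mean of 3. Stellate cell and fibroblast genes reach 866 to 1162 FPKM in KO liver, above the 3 WT liver libraries at 469 to 551 FPKM, and the sum of the hepatocyte identity genes is lower in both KO groups.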

How the data were processed

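PolyA RNA of isolated hepatocytes and whole liver of P14 mice was sequenced by the authors as single-end reads of 75 bases from a stranded TruSeq library. The deposited values are FPKM per gene, which the authors made with STAR and RSEM 1.2.31 on mm10, as named in the submitters' processing notes, and the methods of the study say that these were not normalized further. Annotation came from GENCODE M21, in which 46488 of the 47069 gene identifiers were found, and promoters from RefSeq.

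Genes with a mean of at least 0.1 FPKM over the 12 libraries were kept, 17386 or 36.9%, and all 9 genes of interest passed. log2(FPKM + 0.5) was fitted with limma 3.58.1 in R 4.3.3 (empirical Bayes with a trend) on the groups compared, or on all 4 groups for the compartment difference. The tests were two-sided, p-values were Benjamini-Hochberg adjusted over all genes tested, and an adjusted p of 0.1 was the limit. Other values were computed in Python 3.11.15. The limma and depth steps were tested on simulated data. Depth was estimated from the spacing of values up to 0.5 FPKM of genes with transcripts of 300 to 900 bases.

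The 9 genes and the other lists were chosen with earlier results of these data known. Some genes planned for them are not reported here, and the counts, medians and shares of the lists were computed without them. Named were the 9 genes, Cdk1, any nitrogen handling gene past the limit, and 4 genes like the mean profile. It was also planned to name the extreme genes of each list in a genotype comparison, but only some of these are named. Other list genes past the limit, marker genes given by their level, and genes overlapping or resembling the 9, were named after their values were seen.

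Alternatives were pseudocounts of 0.1 and 1, no filter or one of 1 FPKM, median-ratio size factors, equal library sums, scaling to hepatocyte identity genes, a joint fit, a two-sample test with q-values (a form of test the study names, run here on the genes kept by the filter and not a repeat of its analysis), a replicate block, a minimum log2 fold change of 1 and leaving out each library. No column of the table was left out.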

Additional observations from a re-analysis of the deposited data

Results flagged for a closer look

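In these genes the KO minus WT difference in isolated hepatocytes departed from that in whole liver by the test of the difference itself, with limma over all genes. For Cps1 the difference of the differences was 1.61 on the log2 scale (adjusted p = 0.0100), from a higher level in KO hepatocytes and a lower level in KO liver. Ass1 gave 1.30 (adjusted p = 0.0307), with the same signs, although its difference in hepatocytes alone did not pass. For Asl it was 0.83 (adjusted p = 0.0477), lower in KO liver and not called in hepatocytes. Gls2 gave 0.83 (adjusted p = 0.0637), being lower in both compartments and further so in whole liver. The calls of Asl and Gls2 were lost without WT liver replicate 1 (adjusted p = 0.136 and 0.162), and that of Gls2 also without WT hepatocyte replicate 1 (0.108), KO hepatocyte replicate 1 (0.104), WT liver replicate 3 (0.119) or KO liver replicate 3 (0.114).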

How the results depend on the processing

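Other pseudocounts and the filter of 1 FPKM kept each direction of the 9 genes and left each count among them within 1.5 times. Among all genes, that filter moved the calls between the WT groups from 18 to 8 higher and from 247 to 81 lower. The count of higher genes in KO hepatocytes, 3 of 9, was 0 without a filter, 5 in a joint fit of all 12 libraries, 5 by the two-sample test, 0 with a minimum log2 fold change of 1 and 5 with scaling to hepatocyte identity genes, an alternative chosen after seeing the data. That of lower genes, 1, was 2 in the joint fit and 0 with the minimum fold change. The minimum fold change also left 1 of 5 lower genes in whole liver, 2 of 5 higher genes between KO hepatocytes and KO liver and 2 of 4 in the compartment difference, which follows from its construction. With median-ratio size factors the 5 higher genes between KO hepatocytes and KO liver became 8. Leaving out each library in turn gave 0 to 2 higher and 1 to 2 lower genes in hepatocytes, 0 to 1 higher between the WT groups, 0 to 1 lower between the KO groups, and 2 to 4 higher and 0 to 1 lower in the compartment difference.

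The replicate block, with the replicate number as a term, ended the calls of Cps1 in hepatocytes (adjusted p = 0.163), Otc in whole liver (0.101) and Gls2 in the compartment difference (0.112). Libraries with the same number did not resemble each other across groups, with r from -0.32 to 0.24.

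Signs turned for differences that had not passed the test. With median-ratio size factors, the log2 difference in whole liver was -0.18 for Nags and -0.18 for Slc25a15, and between the WT groups 1.6e-05 for Otc, 0.0056 for Slc25a13 and 0.098 for Gls2. With equal library sums it was 0.0080 for Glud1 in whole liver and 0.033 for Gls2 between the WT groups. With scaling to identity genes it was 0.030 for Otc and 0.0087 for Asl in hepatocytes, 0.032 for Glud1 in whole liver and 0.033 for Gls2 between the WT groups. Leaving out libraries gave -0.20 to 0.046 for Asl in hepatocytes. In whole liver it gave -0.12 to 0.12 for Nags, -0.053 to 0.15 for Slc25a15 and -0.060 to 0.0028 for Glud1. Between the WT groups it gave -0.015 to 0.17 for Cps1, -0.046 to 0.13 for Slc25a15 and -0.094 to 0.043 for Gls2. The cause was not tested.

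FPKM are relative values, so a change in a few abundant transcripts shifts all others. With 3 libraries a group, and 1 KO liver library that stands apart by Xist, small differences cannot be separated from spread between libraries. Read counts were not used here, so depth is an estimate. Reads of Ass1 and Glud1 can be shared with near-identical copies. Whole liver and isolated hepatocytes differ in cell types and in the isolation step, and these cannot be told apart from differences within hepatocytes. RNA levels of these enzymes do not measure urea production.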
